A study of Mus musculus with 11 samples.

Results

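Mice that carried 1 intact copy of the olfactory Taar gene cluster (heterozygous, n = 4 libraries) were compared with wild type mice that carried both copies (WT, n = 3). These are 7 of the 11 samples of the study, chosen by their genotype labels, and all genes of the deposited count table were examined. The other 4 samples, from homozygous knockout mice, entered the fit to share its estimate of the spread and are otherwise given for reference only. Each library was made from polyA-selected RNA of the whole main olfactory epithelium (MOE), without sorting of cells, and all 7 samples are labelled as C57BL/6 pups of postnatal day 1 to 2. The reporting part of the study gives an older age and a background mixed with 129 for the same line, and which applies was not settled here. The deleted chromosome lacks the genes from Taar2 to Taar9 together with 1 of the 2 TAAR enhancers, in every cell of the animal and from the germ line on, while the other enhancer stays in place. The labels give no sex, litter or preparation date, and do not say whether the libraries of a group came from separate animals, so the p-values measure the spread between these samples.

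Trace amine-associated receptors (TAARs) are G protein-coupled receptors for volatile amines. An olfactory sensory neuron (OSN) expresses one receptor gene, either an odorant receptor (OR, Olfr) gene or a Taar gene, and usually from one of its chromosomes. Around the OSNs the mucosa holds stem cells, supporting sustentacular cells, Bowman's glands, respiratory epithelium, macrophages, cartilage and bone, so that a comparison of whole tissue reads all of these at once. The heterozygous mouse is the control genotype of many knockout studies, and the question addressed here was which gene families and cell types differed when 1 copy of the cluster was absent, and whether they did so in every library.

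Library totals ran from 9239866 to 14632525 counts. In this text a level is given as CPM, the usual count of a gene scaled to library size, after TMM scaling, in the order of WT replicates 1 to 3 and heterozygous replicates 1 to 4. Each fold change is a log2 value of heterozygous against WT from edgeR's quasi-likelihood fit. Of 24421 listed genes, 16574 had enough counts to be tested, and 0 (0%) had a Benjamini-Hochberg adjusted p-value under 0.05 in edgeR's quasi-likelihood test, with a lowest adjusted p-value of 0.999968. The unadjusted p-value was under 0.05 for 372 genes, or 2.24% of those tested. Of these, 290 (1.75% of tested genes) were higher in heterozygous libraries and 82 (0.495%) were lower. DESeq2 on the same counts called 3 genes at the adjusted threshold, the Y-linked genes Kdm5d, Eif2s3y and Ddx3y. Single libraries set the unadjusted counts. Without WT replicate 3 there were 614 genes (230 lower), and without WT replicate 1 there were 229 (160 higher). The lower genes numbered 47 without heterozygous replicate 1 and 258 without heterozygous replicate 4.

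Most genes differed little. The median log2 fold change over the 16574 genes was 0.0018, and 90% of genes lay between -0.37 and 0.46. A fold change over 1.5 was estimated for 848 genes, of which 571 were higher and 277 lower, and 288 genes were beyond 2-fold. The 95% confidence interval lay within 1.5-fold of no difference for 6828 genes (41.2%) and within 2-fold for 12651 (76.3%). Precision followed the level of the gene. The interval lay within 1.5-fold for 64.8% of the genes over 100 CPM and for 0% of the 834 genes under 1 CPM, which include many chemoreceptor genes.

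The libraries also differed in ways that the labels do not give. Xist, the noncoding RNA of the inactive X chromosome, had 1647, 1327 and 4297 CPM in the WT libraries and 1.70, 1.10, 1684 and 1.07 CPM in the heterozygous ones. The Y-linked genes showed the reverse, with 65.7, 117, 0.284 and 102 CPM of Eif2s3y in the heterozygous libraries and at most 0.242 CPM in WT. All 3 WT libraries and heterozygous replicate 3 therefore had a high Xist level, and heterozygous replicates 1, 2 and 4 had a low one. A difference that follows the Xist level can in these 7 libraries be told apart from genotype only through heterozygous replicate 3 and the 4 homozygous libraries. On the first principal component over all tested genes, WT replicates 1 and 2 and heterozygous replicates 3 and 4 fell on one side, and WT replicate 3 and heterozygous replicates 1 and 2 on the other. Results are given below with the genes or libraries that move with them. In bulk tissue fewer cells of a type and less RNA per cell cannot be told apart.

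**Figure D1:**
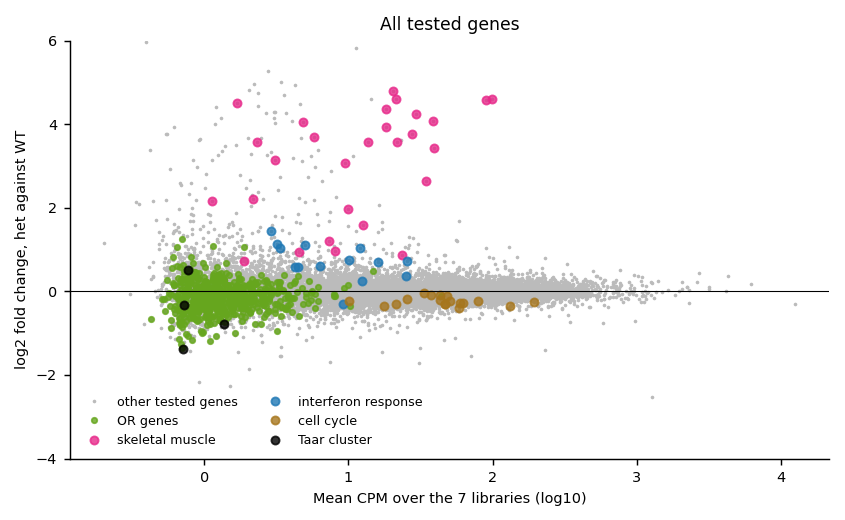
Difference between heterozygous and WT libraries for all tested genes. Each point is a gene, the x axis gives its mean level over the 7 libraries (log10 of CPM) and the y axis its log2 fold change from the edgeR fit, with 5 genes beyond 6 on the log2 scale not drawn. OR genes lie at the low end, the 28 skeletal muscle genes lie all above 0, 13 of 14 interferon response genes lie above 0 and all 18 cell cycle genes lie below 0.

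The deleted cluster was considered first. The 14 olfactory Taar genes lie on chromosome 10 (mm10, positions 23938572 to 24109534), and their summed level was 8.71, 6.98 and 9.61 CPM in WT and 6.53, 6.98, 6.44 and 3.32 CPM in heterozygous libraries. Heterozygous replicate 4 was the lowest, and heterozygous replicate 2 was as high as WT replicate 2. The fold change of the sum was -0.53 (SE 0.28, 95% confidence interval -1.15 to 0.090) and the unadjusted edgeR p-value was 0.0872, and the exact two-sided permutation test gave p = 0.114, where the smallest possible value is 0.0571. The estimate stayed negative under each alternative, between -0.65 and -0.30, and only with the side of the first principal component as a covariate was the unadjusted edgeR p-value under 0.05 (0.0213).

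Single Taar genes had few counts, and Taar5, Taar6, Taar7e and Taar7f were the 4 of 14 that could be tested. Taar7e had 1.20, 1.12 and 1.05 CPM in WT and 0.680, 0.549, 0.190 and 0.214 CPM in heterozygous libraries, so the groups did not overlap (fold change -1.38, SE 0.49). Taar6 had 1.95, 0.882 and 2.58 CPM in WT and 1.02, 0.863, 1.42 and 0.856 CPM in heterozygous libraries. Taar5, the receptor for trimethylamine, went the other way, with 0.371, 0.401 and 1.13 CPM in WT and 1.496, 1.26, 0.758 and 0 CPM in heterozygous libraries, where the single library at 0 had the lowest Taar sum. Taar7f had a fold change of -0.32 (SE 0.41). Of the 10 genes that could not be tested, Taar8a had 0 counts in all 7 libraries, and Taar7d had the most, with 21 counts over WT and 31 over heterozygous libraries. The mean level was lower in heterozygous libraries for 7 of them, from Taar7b with 0.684 CPM in WT and 0.235 CPM in heterozygous libraries to Taar8c with 0.0887 and 0.0830 CPM. It was higher for Taar7d (0.588 and 0.651 CPM) and Taar9 (0.284 and 0.388 CPM). Since the Taar7 genes, and likewise the Taar8 genes, are close copies of each other, their single counts are uncertain.

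**Figure D2:**
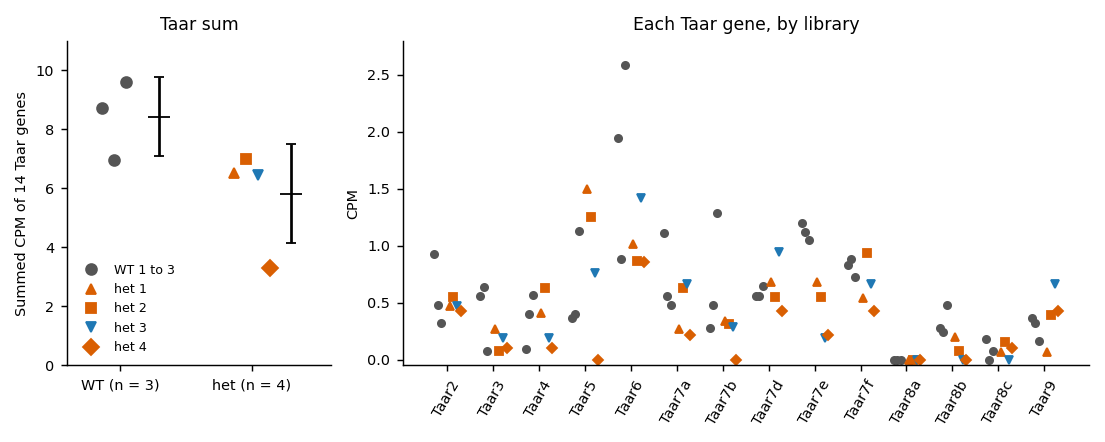
Level of the Taar genes in each library. On the left the summed CPM of the 14 genes is drawn per library with the mean and SD of each group, and on the right the CPM of each gene, with WT circles to the left of the heterozygous symbols. The blue triangle is heterozygous replicate 3, the one with a high Xist level. The groups overlap for the sum, and Taar7e is the 1 of 4 tested genes whose groups do not (25%, beside 1.1% of all genes in this direction).

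The genes on both sides of the cluster were examined next. Taar1, the family member of the brain that the deletion spares, was at 0 counts in each library, as was Tcf21. The other 13 of the 15 genes listed for this region had a median fold change of -0.085. Of these, 1 (7.69%) was higher with an unadjusted p-value under 0.05, beside 1.75% of all genes. Its groups did not overlap, where 1.41% of all genes had all heterozygous libraries above all WT libraries. Vnn1, a pantetheinase at 0.033 Mb from the cluster, had a fold change of -0.15 (SE 0.38), and Stx7, a syntaxin of endosomes at 0.040 Mb, had -0.15 (SE 0.15). Slc18b1, a vesicular polyamine transporter, had 43.4, 41.7 and 59.8 CPM in WT and 43.4, 48.6, 33.2 and 37.7 CPM in heterozygous libraries (-0.25, SE 0.23). Over the whole of chromosome 10 the share of genes with an unadjusted p-value under 0.05 was 2.50%, beside 2.24% over all genes. Within 1 Mb of the cluster it was 8.33%, from 1 of 12 tested genes.

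The remaining chemoreceptors had mostly negative fold changes, but by library the groups overlapped. Among 568 tested OR genes 373 had a negative and 195 a positive fold change, with a median of -0.13, beside 0.0018 over all genes. The 516 tested class II OR genes, the larger and terrestrial class, had a median of -0.14, and the 50 class I genes, which lie in 1 cluster on chromosome 7, had -0.035. The family was lowest in heterozygous replicate 4, in which 116 of the 568 genes lay above their WT mean, against 235, 275 and 245 in replicates 1 to 3 and 298, 172 and 322 in WT replicates 1 to 3. WT replicate 2 thus lay below heterozygous replicates 1 to 3. The median of the family was -0.041 without this library, -0.069 without WT replicate 3 and -0.23 without WT replicate 2. That of class I genes ran from -0.24 without heterozygous replicate 1 to 0.10 without heterozygous replicate 4. The unadjusted p-value was under 0.05 for 6 lower OR genes (1.06%, beside 0.495% of all genes) and 1 higher (0.176%, beside 1.75%), and 21 OR genes had all 4 heterozygous libraries below all 3 WT libraries, or 3.70% of the OR genes, beside 1.1% of all tested genes.

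The most abundant OR gene, Olfr536, had 41.7, 53.5 and 43.3 CPM in WT and 35.8, 51.8, 46.5 and 36.4 CPM in heterozygous libraries (-0.12, SE 0.17). Olfr1507, a class II gene on chromosome 14, had 11.03, 12.5 and 11.5 CPM against 4.89, 10.5, 11.2 and 9.95 CPM (-0.36, SE 0.28). The 3 OR genes with the lowest p-values were near 1 CPM. Olfr986 had 0.927, 1.52 and 1.21 CPM in WT and 0.748, 0.471, 0.569 and 0.321 CPM in heterozygous libraries (-1.17, SE 0.39), and Olfr1080 had 1.58, 1.52 and 2.099 CPM against 0.884, 0.628, 1.33 and 0.428 CPM (-1.07, SE 0.38). For Olfr319 the fold change was -1.35 (SE 0.47). In all 3 genes the groups did not overlap. Per chromosome the median fold change of the tested OR genes ranged from -0.25 on chromosome 19 (31 genes) to -0.042 on chromosome 7 (116 genes) among chromosomes with over 20 such genes, and for the 35 OR genes that share chromosome 10 with the deletion it was -0.15.

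Other chemoreceptor families were near the limit of detection. Of 338 vomeronasal receptor genes 3 could be tested (Vmn2r29, Vmn2r65 and Vmn2r74), with fold changes from -0.65 to 0.063. Of 22 Ms4a and formyl peptide receptor genes 5 could be tested and all 5 were higher, with a median of 0.32. Ms4a6d, which macrophages also express, had 3.80, 3.69 and 3.63 CPM in WT and 6.32, 6.35, 6.92 and 5.78 CPM in heterozygous libraries (0.77, SE 0.35), with an unadjusted edgeR p-value of 0.0453. Macrophage genes are described below.

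Genes of mature OSNs gave small differences that were smaller than the spread within WT. All 12 mature OSN markers had a negative fold change (median -0.16), 0 with an unadjusted p-value under 0.05. Omp, the olfactory marker protein, had 737, 599 and 349 CPM in WT and 533, 508, 552 and 414 CPM in heterozygous libraries. WT replicate 3 was the lowest and WT replicate 1 the highest of the 7, so the heterozygous libraries lay within the WT range. The genes of olfactory transduction, which turn receptor activation into a current in the cilia, had a median of -0.17, with 12 of 13 lower, but it was 0.073 (Xist class) and 0.056 (Xist level) in the fits that had these as covariates. Without WT replicate 1 it was -0.023. Among them Gnb1 (-0.011, SE 0.17), Gnal, the G protein alpha subunit of OSNs (-0.21, SE 0.20), and Slc12a2, the chloride loader (-0.22, SE 0.29), were the most abundant. The median of the mature OSN markers was 0.00047 without WT replicate 1 and -0.33 without WT replicate 3. Within the second side of the principal component, which has 1 WT library, it was 0.21.

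Younger stages of the lineage had medians near that of all genes. Immature OSN markers had a median of 0.016 (7 of 12 higher), with Stmn2 at 418, 416 and 321 CPM in WT and 377, 384, 449 and 377 CPM in heterozygous libraries. Neuronal precursor genes had a median of 0.090 (8 of 12 higher) and regulators of receptor choice such as Ldb1, Ebf3 and Atf5 had 0.010 (11 of 17 higher). For Atf5, a stress-response factor that the unfolded protein response turns on during receptor choice, levels were 731, 731 and 578 CPM in WT and 824, 745, 832 and 555 CPM in heterozygous libraries (0.12, SE 0.18). Guanylyl cyclase neurons (median 0.17 over 6 genes) and zonal markers (-0.074 over 7 genes) had 0 genes with an unadjusted p-value under 0.05.

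The clustered protocadherins, neuronal surface proteins that give single neurons an identity, were lower for 38 of 54 tested members (median -0.13), and 7 of the 54 had all heterozygous below all WT libraries, 13.0% beside 1.1% of all genes. Pcdhb13 had 3.43, 4.65 and 2.34 CPM in WT and 1.63, 1.65, 2.08 and 1.39 CPM in heterozygous libraries (-1.04, SE 0.31). Pcdhb1, with higher counts, had 53.9, 41.05 and 41.4 CPM in WT and 34.8, 34.9, 32.4 and 31.6 CPM in heterozygous libraries (-0.44, SE 0.18). The 3 members with an unadjusted p-value under 0.05, Pcdhb13, Pcdhb1 and Pcdhga9, were all lower (5.56% of the family, beside 0.495% of all genes). The median of the family was 0.02 with the Xist class as a covariate and -0.04 without heterozygous replicates 2 and 4. By library it was -0.0021, 0.19 and -0.21 in WT and -0.23, -0.11, 0.17 and -0.23 in heterozygous libraries (log2 of CPM + 0.5 minus the WT mean), so WT replicate 3 was about as low as heterozygous replicates 1 and 4. Genes of the alpha and gamma clusters share their last exons, and the counting setting for shared reads is not given in the sources used here.

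Sema3a, a repulsive guidance ligand, had 57.0, 70.7 and 71.4 CPM in WT and 35.3, 53.9, 52.0 and 52.3 CPM in heterozygous libraries (-0.46, SE 0.18). Its groups did not overlap. Pcdh10, a protocadherin outside the clusters whose level depends on activity in OSNs, had 21.8, 16.8 and 18.2 CPM in WT and 46.8, 27.5, 40.9 and 13.4 CPM in heterozygous libraries (0.77, SE 0.34), and replicate 4 lay below WT. The other 17 of the 19 axon guidance genes, among them Plxna1 (-0.0046, SE 0.14), had an unadjusted p-value of 0.05 or more. The 1 lower and 1 higher member under 0.05 were each 5.26% of the list, beside 0.495% and 1.75% of all genes. Sema3a was the 1 member without overlap (5.26%), beside 1.1% of all genes with all heterozygous below all WT libraries.

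**Figure D3:**
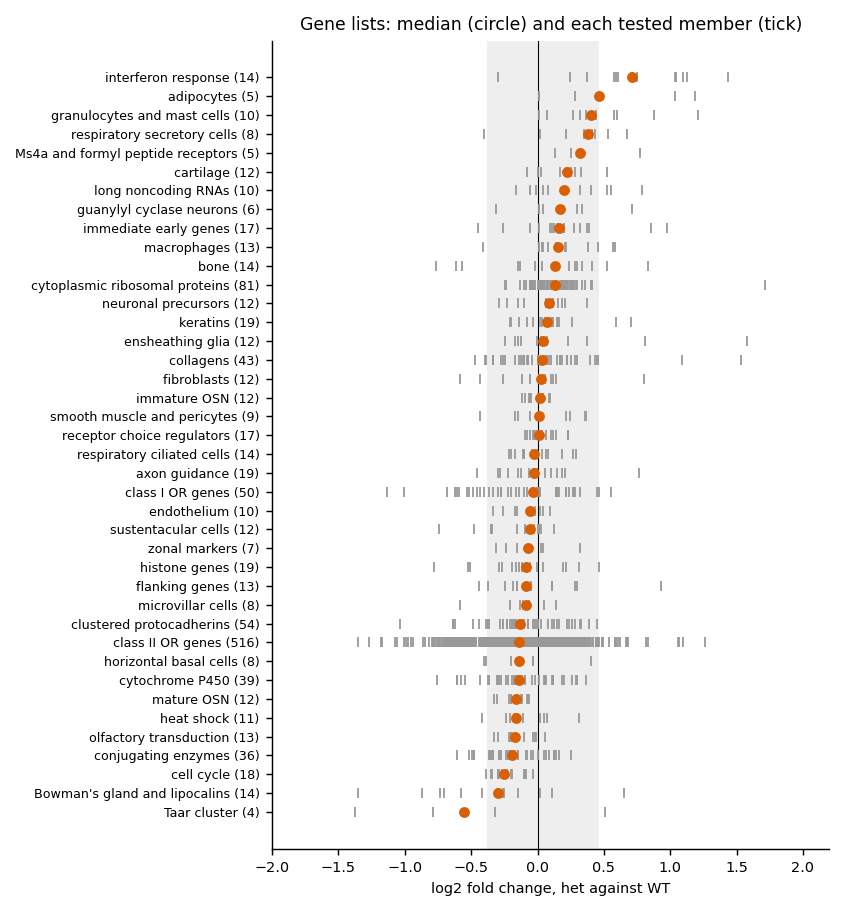
Fold changes of 40 gene lists, ordered by median. Each tick is the log2 fold change of a tested gene (heterozygous against WT), the circle is the median of the list, the number of tested genes stands in brackets, and the grey band holds 90% of all tested genes. The interferon response list has a median of 0.71 and lies above the band, adipocyte genes have 0.46 just past its edge, and all other lists drawn except the Taar cluster (-0.55) have medians inside it. Skeletal muscle genes (median 3.58) and sex-linked genes lie outside the axis and are not drawn, nor are vomeronasal receptors, lymphocytes and erythroid cells, which have few tested genes, and the OR genes as a whole.

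The gene group that stood highest in heterozygous libraries, apart from muscle and Y-linked genes, was the interferon response. Interferons bind surface receptors and, through transcription factors, induce antiviral genes whose promoters carry interferon-stimulated response elements, pairs of GAAA separated by 2 bases. Stretches upstream of the start of 4 list members with an unadjusted p-value under 0.05 are printed to show these pairs. They run from 160 to 51 bases before the transcription start (RefSeq, GRCm38.p6), 5′ to 3′ on the strand of the gene, with each GAAA, or its reverse complement TTTC, of a pair in capitals. Rsad2 (chr12:26456503-26456612, minus strand), Ifit3 (chr19:34583369-34583478, plus strand), Isg15 (chr4:156200869-156200978, minus strand) and Bst2 (chr8:71537523-71537632, minus strand) read as follows.
Rsad2: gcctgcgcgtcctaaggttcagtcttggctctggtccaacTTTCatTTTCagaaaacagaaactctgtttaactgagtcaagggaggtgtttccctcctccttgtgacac
Ifit3: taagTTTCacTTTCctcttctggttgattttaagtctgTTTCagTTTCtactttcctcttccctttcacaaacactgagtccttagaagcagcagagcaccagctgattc
Isg15: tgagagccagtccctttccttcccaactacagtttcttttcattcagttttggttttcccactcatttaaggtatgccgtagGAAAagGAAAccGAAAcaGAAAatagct
Bst2: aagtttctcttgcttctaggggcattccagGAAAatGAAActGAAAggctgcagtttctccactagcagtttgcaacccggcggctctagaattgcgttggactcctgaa

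Searched on both strands over the 250 bases before the start, such a pair was present in 6 of the 10 list members with a promoter entry (the 4 above, Ifit1 and Oas1a) and in 3.46% of 27025 genes with an entry. In Isg15 and Bst2 neighbouring pairs overlap. No pair was found in the windows of Ifi44, Ifit2, Irf7 and Oasl2. Over all tested genes, the 401 with a pair had a median fold change of 0.0029 and those without one 0.0016.

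Of the 14 interferon response genes 13 were higher (median 0.71, beside 0.0018 over all genes), 7 of them with an unadjusted p-value under 0.05, where 1.75% of all genes had one in this direction. Summed over the list the level was 120.5, 99.02 and 106 CPM in WT and 190, 162, 176 and 126 CPM in heterozygous libraries. All 4 heterozygous libraries lay above all 3 WT libraries, replicate 4 by the least. The homozygous libraries had 200, 165, 165 and 129 CPM. Of the 44 lists this was 1 of 3 whose summed level did not overlap between heterozygous and WT libraries, with the adipocyte list and the Ms4a and formyl peptide receptors.

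Irf7, the transcription factor that amplifies the type I interferon response, had 6.67, 6.41 and 9.45 CPM in WT and 24.5, 15.2, 12.3 and 9.74 CPM in heterozygous libraries, which gave a fold change of 1.04 (SE 0.32) with an unadjusted edgeR p-value of 0.00632. Rsad2, which encodes the antiviral enzyme viperin, had 3.24, 2.24 and 3.55 CPM in WT and 6.32, 6.43, 7.20 and 5.89 CPM in heterozygous libraries (1.10, SE 0.31). Rtp4, a chaperone of the receptor-transporting family that interferon induces, had 8.62, 4.97 and 8.40 CPM in WT and 14.005, 13.1, 13.2 and 8.78 CPM in heterozygous libraries (0.75, SE 0.24). For these 3 genes the groups did not overlap, where 1.41% of all genes had all heterozygous libraries above all WT libraries.

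Among the others, Ifit3, an RNA-binding restriction factor, had 1.11, 1.20 and 2.099 CPM in WT and 5.98, 5.26, 1.80 and 2.89 CPM in heterozygous libraries (1.44, SE 0.45), and replicate 3 lay within WT. Oasl2 (0.72, SE 0.25), the tethering factor Bst2 (0.70, SE 0.28) and the ubiquitin-like modifier Isg15 (0.58, SE 0.26) were each above WT in all but replicate 4. Ifit2 was the single lower member (-0.30, SE 0.26). The highest level in the list was 39.7 CPM, of Oasl2 in heterozygous replicate 3.

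The list median was positive under each of 19 alternatives, from 0.57 without WT replicate 2 to 1.01 with the Xist level as a covariate. It was 0.94 without heterozygous replicates 2 and 4 and 0.89 with the muscle level as a covariate. Within the 2 sides of the principal component it was 0.61 and 0.75. No member had an adjusted p-value under 0.05 in edgeR's test or in DESeq2. All 3 WT libraries had a high Xist level. The fits with Xist as a covariate rest on heterozygous replicate 3 and homozygous replicate 1, the single high library of each of these groups. Sex and genotype therefore cannot be told apart for this difference.

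Macrophage genes were also mostly higher, by less. Of 13 markers 12 had a positive fold change (median 0.15) and 4 (30.8%) had an unadjusted p-value under 0.05, where 1.75% of all genes had one in this direction. The complement genes C1qb, with 38.5, 29.7 and 32.5 CPM in WT and 56.8, 37.5, 41.0 and 48.9 CPM in heterozygous libraries (0.46, SE 0.17), and C1qc, with 25.7, 25.2 and 26.8 CPM and 40.9, 28.6, 33.4 and 32.2 CPM (0.38, SE 0.14), were joined by the lysosomal marker Cd68 (0.57, SE 0.21) and the Fc receptor Fcgr1 (0.58, SE 0.27). C1qc was the 1 member of 13 whose groups did not overlap (7.69%), where 1.41% of all genes had all heterozygous libraries above all WT libraries. Csf1r, the receptor that macrophages depend on, had 57.4, 65.98 and 57.9 CPM in WT and 61.7, 59.5, 67.9 and 66.5 CPM in heterozygous libraries (0.080, SE 0.12), and Cx3cr1 and Mrc1 had fold changes of 0.037 (SE 0.19) and 0.040 (SE 0.27).

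Neutrophil and mast cell genes had a median of 0.40, with 10 of 10 tested members higher and 0 with an unadjusted p-value under 0.05. S100a9, a calcium-binding protein of neutrophils, had 22.8, 10.3 and 26.2 CPM in WT and 42.2, 22.1, 32.8 and 20.5 CPM in heterozygous libraries. Lymphocyte genes were nearly undetected, with 3 of 13 tested.

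**Figure D4:**
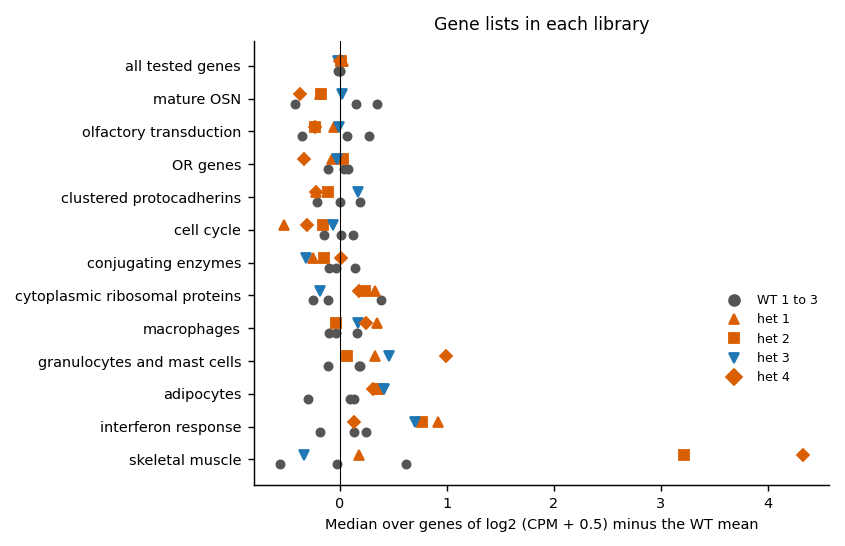
Level of 13 gene lists in each library. The x axis gives the median over the genes of a list of log2 (CPM + 0.5) minus the mean of the 3 WT libraries, WT circles are drawn below and heterozygous symbols above each line, and the blue triangle is heterozygous replicate 3, the one with a high Xist level. Interferon response genes are at 0.92, 0.77, 0.70 and 0.14 in heterozygous replicates 1 to 4, cell cycle genes are below 0 in all 4, and skeletal muscle genes are at 3.22 and 4.33 in replicates 2 and 4 and within the WT range in replicates 1 and 3.

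Cell cycle genes went the other way. All 18 had a negative fold change, with a median of -0.25, and 2 had an unadjusted p-value under 0.05, where 0.495% of all genes had one in this direction. Ccna2, the cyclin of S phase and G2, had 67.0, 77.0 and 59.0 CPM in WT and 44.7, 60.9, 53.2 and 48.2 CPM in heterozygous libraries (-0.39, SE 0.14), with replicate 2 above WT replicate 3. Mki67, the proliferation antigen Ki-67, had 194, 232 and 212 CPM in WT and 183, 188, 168 and 170 CPM in heterozygous libraries (-0.26, SE 0.12), and here the groups did not overlap. Top2a, the topoisomerase of dividing cells, had 152, 182 and 116 CPM in WT and 88.3, 126, 150 and 106 CPM in heterozygous libraries (-0.35, SE 0.23).

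The replication helicase genes Mcm2 to Mcm7 were all lower, between -0.29 (Mcm3) and -0.086 (Mcm7), each with an SE of 0.16 to 0.24. Of the 18 genes, 2, 7, 6 and 1 lay above their WT mean in heterozygous replicates 1 to 4, and 9, 14 and 6 in WT replicates 1 to 3. The summed level was 1093, 1251 and 984 CPM in WT and 817, 997, 1010.0 and 909 CPM in heterozygous libraries, so the groups overlapped through WT replicate 3. The median of the list was negative under each of 19 alternatives, from -0.32 without WT replicate 3 to -0.10 with the Xist class as a covariate, and was -0.13 without WT replicate 2 and -0.16 without heterozygous replicate 1. Histone genes, which are made in S phase and mostly lack polyA tails, had a median of -0.084 over 19 tested genes.

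Stem and supporting cells differed among libraries more than between genotypes. Horizontal basal cell genes had a median of -0.14. Krt5, their keratin, had 81.0, 69.1 and 26.5 CPM in WT and 35.6, 35.9, 36.9 and 96.8 CPM in heterozygous libraries, with WT replicate 3 the lowest and heterozygous replicate 4 the highest of the 7. Sustentacular genes had a median of -0.058. Cyp2a5, an odorant-oxidising enzyme and the most abundant of them, had 2095, 1390.4 and 2198 CPM in WT and 1705, 1901, 1607 and 1896 CPM in heterozygous libraries. Conjugating enzymes, which attach polar groups to odorants and xenobiotics, had a median of -0.19 (27 of 36 lower, 0 with an unadjusted p-value under 0.05), with Ugt2a1 at 461, 327 and 535 CPM in WT and 269, 397, 357 and 358 CPM in heterozygous libraries (-0.35, SE 0.22). Cytochrome P450 genes had -0.14 over 39 tested genes, and 2 of them (5.13%, beside 1.1% of all genes) had all heterozygous below all WT libraries. Cyp7b1, an oxysterol hydroxylase, was the member with an unadjusted p-value under 0.05 (2.56%, beside 0.495% of all genes in this direction). It had 5.56, 7.70 and 6.78 CPM in WT and 3.81, 4.16, 4.45 and 5.14 CPM in heterozygous libraries (-0.61, SE 0.22), without overlap.

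Gland products varied several-fold among the libraries of each group. The list of Bowman's gland and lipocalin genes summed to 36120, 23833 and 9556 CPM in WT and to 16261, 9093, 11805 and 40523 CPM in heterozygous libraries, and 11 of its 14 tested genes were lower (median -0.30). Bpifb9b, a lipid-binding secretory protein and the most abundant gene in 5 of the 7 libraries, had 22591, 14341 and 5192 CPM in WT and 8760, 4753, 6676 and 25189 CPM in heterozygous libraries (-0.31, SE 0.63). The odorant-binding protein gene Obp2a had 807, 527 and 0.161 CPM in WT and 42.4, 3.29, 0.948 and 1023 CPM in heterozygous libraries. Both genes were high in WT replicates 1 and 2 and heterozygous replicate 4. The members with an unadjusted p-value under 0.05, 1 in each direction (7.14%, beside 1.75% higher and 0.495% lower over all genes), went in opposite directions. Bpifb3, of the same family as Bpifb9b, had 70.7, 34.6 and 32.9 CPM in WT and 30.6, 29.7, 30.9 and 32.1 CPM in heterozygous libraries (-0.58, SE 0.26), without overlap. WT replicate 1 was far above the other WT libraries, and over the alternatives the fold change of Bpifb3 ran from -0.77 to -0.13. Muc5b, the gel-forming mucin, had 299, 249 and 197 CPM in WT and 534, 222, 423 and 381 CPM in heterozygous libraries (0.65, SE 0.29). In the respiratory epithelium the secretory genes had a median of 0.38 (7 of 8 higher), with the secretoglobin Scgb3a1 at 5.19, 4.81 and 7.59 CPM in WT and 11.8, 7.37, 8.34 and 9.95 CPM in heterozygous libraries (0.68, SE 0.23), and ciliated cell genes had a median of -0.026.

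Apart from the Y-linked genes, skeletal muscle had the list median farthest from 0, and its libraries differed widely. All 28 tested genes had a positive fold change, with a median of 3.58, and 22 of them (78.6%, beside 1.75% of all genes) were among the 290 higher genes with an unadjusted p-value under 0.05. Summed over the list, the level was 57.2, 133 and 86.9 CPM in WT and 113, 955, 79.0 and 2564 CPM in heterozygous libraries. Heterozygous replicates 2 and 4 were high, replicates 1 and 3 lay within the WT range, and the group means were 92.3 ± 38.2 (SD, n = 3) and 928 ± 1164 CPM (SD, n = 4). Acta1, skeletal actin, had 1.02, 13.0 and 5.01 CPM in WT and 6.05, 155, 5.78 and 446 CPM in heterozygous libraries. Without replicates 2 and 4 the median of the list was -0.15.

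The order with heterozygous replicates 2 and 4 above all other 5 libraries was found in 361 of all 16574 tested genes (2.18%), and in 335 of the 16546 outside the muscle list (2.02%). Of the 372 genes with an unadjusted p-value under 0.05, which that order favours, 115 showed it, 94 of them outside the muscle list, and 174 kept a p-value under 0.05 when both were left out (128 higher and 46 lower). The homozygous libraries had summed muscle levels of 239, 668, 1219 and 120.2 CPM, of which 3 lay above all WT libraries. The part of muscle tissue in the samples in the other differences was not tested beyond the fits without these 2 libraries and with the muscle level as a covariate.

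Connective tissue genes followed. Cartilage genes had 0.22 (11 of 12 higher), with Col2a1, the main cartilage collagen, at 3493, 9375 and 4501 CPM in WT and 6060, 6110, 9557 and 4283 CPM in heterozygous libraries. Fibroblast genes had 0.030 (7 of 12 higher), and 1 member in each direction (8.33%, beside 1.75% higher and 0.495% lower over all genes) had an unadjusted p-value under 0.05. Mfap5, a microfibril protein, had 1.95, 2.41 and 2.42 CPM in WT and 2.58, 4.08, 3.13 and 6.10 CPM in heterozygous libraries (0.80, SE 0.37), without overlap. The proteoglycan Dcn, whose groups overlapped, had 290, 383 and 233 CPM in WT and 150, 214, 155 and 286 CPM in heterozygous libraries (-0.59, SE 0.25). Bone, endothelial and smooth muscle genes had medians of 0.14, -0.054 and 0.011 and 0 genes with an unadjusted p-value under 0.05. The bone median had no stable direction, from -0.62 without heterozygous replicates 2 and 4 to 0.94 without WT replicate 2, and bone genes were highest in WT replicate 2 and heterozygous replicate 4. Of 11 adipocyte genes 5 could be tested, all higher (median 0.46). Lpl, the lipoprotein lipase that releases fatty acids, had 71.6, 77.0 and 54.3 CPM in WT and 72.7, 86.6, 131 and 83.2 CPM in heterozygous libraries (0.46, SE 0.32). Cytoplasmic ribosomal protein genes had a median of 0.13 (67 of 81 higher), but it was -0.21 with the Xist class as a covariate.

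Over all 16574 tested genes, with list members included, 233 (1.41%) had all 4 heterozygous libraries above all 3 WT libraries and 183 (1.1%) had all 4 below. Of these 416 genes, 113 higher and 47 lower ones (160 in all) were also below 0.05 by unadjusted p-value. Among those with a mean of at least 1 CPM, the 12 lower and 12 higher genes with the lowest p-values were taken, and 22 of them are described here because their libraries do not overlap, a choice that used the same contrast. The values are therefore a description, and 0 of them had an adjusted p-value under 0.05 in edgeR's test. All 24 kept their sign with the Xist class or the muscle level as a covariate, while fits on fewer of these libraries could not have turned it.

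Itgbl1, which encodes a secreted protein with integrin beta-like repeats (mm10, chromosome 14, 123659971 to 123975618), had the lowest p-value in the table. Its level was 29.9, 45.1 and 41.3 CPM in WT and 22.1, 23.5, 25.2 and 23.3 CPM in heterozygous libraries (-0.72, SE 0.17), with an unadjusted edgeR p-value of 0.00128. The heterozygous libraries were close to each other and all lay below the lowest WT library, which the way the genes were chosen favours. In homozygous libraries the level was 18.8, 18.5, 24.6 and 24.0 CPM. Over the alternatives its adjusted p-value ranged from 0.517 to 1 in edgeR or DESeq2.

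Fmo6, of the flavin monooxygenase family that oxidises nitrogen and sulphur in xenobiotics, had 94.4, 83.9 and 85.3 CPM in WT and 57.3, 63.8, 48.5 and 52.0 CPM in heterozygous libraries (-0.66, SE 0.17). C1s1, a protease of the classical complement pathway, had 43.4, 49.3 and 42.6 CPM against 34.0, 30.9, 35.6 and 31.6 CPM (-0.45, SE 0.12). Hhip, which binds and limits Hedgehog ligands, had 34.8, 36.6 and 32.9 CPM against 17.6, 25.5, 21.7 and 27.2 CPM (-0.60, SE 0.21). The SDs of these genes within WT were 5.74, 3.66 and 1.89 CPM (n = 3), and the way the genes were chosen favours a low spread.

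Lower levels without overlap were also found for the serotonin receptor subunit Htr3b (-1.34, SE 0.39), Pcdhb13, Tmem132c (-0.72, SE 0.23), Itih5 (-0.59, SE 0.19), the amino acid transporter Slc38a11 (-0.80, SE 0.27) and the sialyltransferase St8sia6 (-0.50, SE 0.18). For Tmem132c, heterozygous replicate 4 had 19.7 CPM, close to the lowest WT library at 20.01 CPM. With the Xist class as a covariate the unadjusted edgeR p-values of Htr3b, Pcdhb13, Itih5, Hhip and St8sia6 were 0.125, 0.0835, 0.117, 0.0984 and 0.0831.

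**Figure D5:**
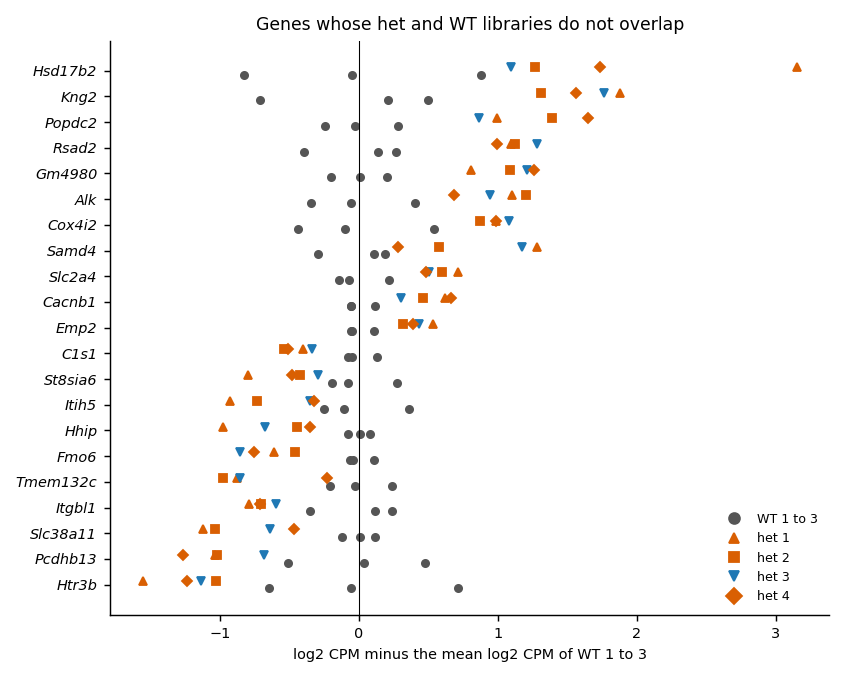
Genes whose heterozygous and WT libraries do not overlap, without the Y-linked Eif2s3y. The x axis gives log2 CPM of each library minus the mean log2 CPM of the 3 WT libraries, WT circles are drawn below and heterozygous symbols above each line, and the blue triangle is heterozygous replicate 3, the one with a high Xist level. In each of the 21 genes all heterozygous symbols lie on one side of the WT circles, by the choice of these genes.

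Among the higher genes, Emp2, a membrane protein of epithelia, had 67.5, 60.7 and 60.1 CPM in WT and 90.6, 78.1, 84.7 and 82.1 CPM in heterozygous libraries (0.42, SE 0.11). Kng2, a kininogen, had 6.30, 2.73 and 5.17 CPM against 16.4, 11.1, 15.2 and 13.2 CPM (1.56, SE 0.46). Samd4, which encodes an RNA-binding repressor of translation, had 25.4, 33.7 and 35.6 CPM against 75.7, 46.4, 70.5 and 37.9 CPM (0.87, SE 0.26). The last was uneven, with replicate 4 just above WT.

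Several of the higher genes are known from muscle and fat. The part of muscle tissue in their differences was not tested beyond the fits without heterozygous replicates 2 and 4 and with the muscle level as a covariate. Slc2a4, the insulin-regulated glucose transporter, had 15.4, 16.1 and 19.7 CPM in WT and 27.8, 25.7, 24.1 and 23.7 CPM in heterozygous libraries (0.57, SE 0.15), with replicate 4 the lowest of the 4. Cacnb1, a calcium channel subunit of skeletal muscle, had 17.9, 20.1 and 17.9 CPM against 28.6, 25.6, 22.9 and 29.4 CPM (0.51, SE 0.15), with replicate 4 the highest and an unadjusted edgeR p-value of 0.102 with the Xist class as a covariate. Popdc2, a Popeye domain protein of striated muscle, was highest in replicates 4 and 2 (3.10 and 2.59 CPM), with 1.97 and 1.80 CPM in replicates 1 and 3 and at most 1.20 CPM in WT (1.22, SE 0.34).

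The other higher genes were low. Alk, a receptor tyrosine kinase of neurons, had 1.76, 1.28 and 1.05 CPM in WT and 2.86, 3.06, 2.56 and 2.14 CPM in heterozygous libraries (0.97, SE 0.28). Cox4i2, a cytochrome c oxidase subunit (0.91, SE 0.28), Hsd17b2, a steroid dehydrogenase (1.91, SE 0.58), and Gm4980 (1.08, SE 0.30) had heterozygous means of 3.73, 10.8 and 3.17 CPM. Hsd17b2 reached 22.8 CPM in replicate 1 and between 5.50 and 8.56 CPM in the others.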

How the data were processed

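RNA-seq of the whole MOE was measured in 11 libraries (3 WT, 4 heterozygous, 4 homozygous). Per the submitters' processing notes, the authors trimmed reads with Trimmomatic (0.36), aligned them to mm10 with HISAT2 (2.1.0) and deposited raw counts per gene from featureCounts (Subread 1.6.2), with 1 column per library. How strand and multi-mapping reads were handled is not given in the sources used here. The deposited table of normalised values was not used, and 0 columns lacked a sample. Counts were tested with edgeR (4.0.16, R 4.3.3) by TMM scaling, the filterByExpr rule with genotype as group, 1 quasi-likelihood model of all 11 libraries with a mean for each genotype, and the contrast of heterozygous minus WT, with Benjamini-Hochberg adjustment over 16574 genes. The common dispersion gave a biological coefficient of variation of 0.269. Tests of the fit on simulated counts preceded its use. DESeq2 (1.42.0), RLE scaling, no filter, subsets of libraries and covariates were alternatives. The sum of the Taar genes replaced them in the same fit, with an exact permutation test on its CPM. Counts of depth cover counting error only, and reads without molecular identifiers are not independent molecules.

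The gene lists, the comparison and its members were chosen with earlier results of these data known. Named genes are those of the Taar and flanking lists, the 3 most abundant members of a list and up to 3 with the lowest unadjusted p-value under 0.05, and up to 12 genes in each direction whose groups do not overlap. Other genes given are further members of the same lists, chosen after their values were seen. Coordinates are from GENCODE M21 (mm10), which matched 23350 of 24421 symbols (95.6%), and promoters are from RefSeq (GRCm38.p6). Class I OR genes are the 124 Olfr symbols between 102 and 106 Mb of chromosome 7. The covariates of the library side over all tested genes and of the Xist class (over 100 CPM), and the fit without heterozygous replicates 2 and 4, were added after seeing the data. A few genes that these rules name are not reported here.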

Additional observations from a re-analysis of the deposited data

Results flagged for a closer look

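Among 71 values examined (46 summed lists, the Taar sum and the 24 genes without overlap), 9 had 1 heterozygous library apart from the other 3 by Dixon's 95% criterion for 4 samples, where chance flags about 1 in 20. Heterozygous replicate 3 was the highest of the 4 for 6 summed levels. These were 30.5 CPM for Ms4a and formyl peptide receptors (next 24.5), 2880 CPM for olfactory transduction (next 2307), 3572 CPM for immature OSN markers (next 2684), 422 CPM for clustered protocadherins (next 362), 29696 CPM for collagens (next 21344) and 1684 CPM for sex-linked genes, the last from Xist (next 305).

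Heterozygous replicate 4 stood apart for the other 3. It had the highest level of horizontal basal cell genes (452 CPM, next 240.4) and of Tmem132c (19.7 CPM, next 12.8), and the lowest Taar sum (3.32 CPM, next 6.44). Only the Taar sum among these bears on the deleted genes, and its fold change without this library was -0.34.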

How the results depend on the processing

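The number of genes past the adjusted threshold stayed at 0 when each WT or heterozygous library was left out and under the other fits, except for 3 genes in DESeq2 (Kdm5d, Eif2s3y and Ddx3y) and 5 genes in the replicate block fit of replicates 1 to 3 (Mup5, Car6, Scgb2b27, Scgb1b27 and Obp1a). The number with an unadjusted p-value under 0.05 was 229 to 614 when 1 library was left out (160 to 384 higher and 47 to 258 lower) and 754 with the side of the all-gene principal component as a covariate (492 higher, 262 lower). The lower genes numbered 139 with no filter, 129 with the side of the component over the 500 most variable genes as a covariate, 220 with the Xist level, 235 with the Xist class, 246 with the muscle level and 229 without heterozygous replicates 2 and 4.

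The labels do not say whether the replicate numbers pair WT and heterozygous libraries, and the main fit used no pairing. Deviations of same-numbered libraries from their group means correlated at -0.19, -0.38 and -0.23. Those of the other pairs correlated between -0.57 and 0.63, so these values cannot decide whether libraries shared a litter or preparation. With a replicate block over all 11 libraries the unadjusted count was 239 (168 higher), and with replicates 1 to 3 there were 112 higher and 143 lower genes.

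The Taar sum ran from -0.65 to -0.34 when 1 library was left out, and was -0.61 with the all-gene side as a covariate, where its unadjusted edgeR p-value passed 0.05. Of 874 list medians under alternatives, 51 moved by over 1 SD between libraries. Among the lists described, the median changed sign under at least 1 alternative for the flanking, transduction, mature and immature OSN, precursor, receptor choice, zonal, axon guidance, protocadherin, class I OR, basal cell, gland, ciliated cell, histone, ribosomal protein, cartilage, bone, fibroblast, endothelial, smooth muscle and skeletal muscle lists. Of 1321 values of single tested genes, 34 changed sign, all in flanking genes, and 3, the Y-linked genes in DESeq2, passed the adjusted threshold. When 1 library was left out the flanking fold changes ran from -0.090 to 0.44 for Ctgf, -0.019 to 0.32 for Enpp1, -0.56 to 0.00053 for Eya4, -0.050 to 0.48 for Med23, -0.22 to 0.064 for Moxd1, -0.0046 to 1.14 for Rps12, -0.19 to 0.22 for Tbpl1, -0.49 to 0.11 for Vnn1 and -0.44 to 0.35 for Vnn3. With the Xist level as a covariate the sign turned for Med23 (-0.23), Moxd1 (0.030), Rps12 (-0.26), Stx7 (0.015) and Vnn1 (0.50), and with the Xist class it turned for the same genes (-0.28, 0.029, -0.33, 0.027 and 0.43). It turned in the replicate block of replicates 1 to 3 for Moxd1 (0.023), Tbpl1 (0.059) and Vnn1 (0.011), in the block of all libraries for Tbpl1 (0.014), with the all-gene side for Med23 (-0.0044), with the muscle level for Vnn1 (0.13), and without heterozygous replicates 2 and 4 for Moxd1 (0.055) and Vnn1 (0.21). The cause was not tested.

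The design limits what could be called. Genes under 1 CPM had a median half-width of the 95% interval of 1.19 on the log2 scale, against 0.40 over 100 CPM. The Xist class follows genotype in all but 1 of the 7 libraries.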
